A study of Homo sapiens with 12 samples.

Results

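The gene expression of HCT116 cells that lack SPARCLE was compared with that of wild type (WT) cells after doxorubicin. HCT116 is a human colon carcinoma line with functional p53, and SPARCLE is a long non-coding RNA gene that the series' title describes as p53-induced. The comparison used 4 of the 12 libraries of the series: WT a and b and SPARCLE knockout (KO) a and b, each from HCT116 cells kept in medium with 1 µM doxorubicin for 48 h. Only autosomal genes were described, 14672 of the 15256 genes that passed the filter on low values and 16036 of the 16676 genes listed. The other 8 libraries were 2 WT and 2 KO libraries from regular medium (control) and 2 libraries in each medium from cells over-expressing SPARCLE (OE). The design text calls the libraries of a group biological replicates. The labels do not say how the knockout was made, whether the KO or OE cells are 1 clone each, or from which cells the OE line was derived.

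Doxorubicin poisons topoisomerase II, and the DNA breaks it leaves activate p53, which raises the transcription of arrest genes such as CDKN1A and of death genes such as PMAIP1 and BAX. PARP-1 binds DNA breaks and builds ADP-ribose chains, and caspases cut it during apoptosis. The SPARCLE transcription unit is the one listed as MIR34BHG, named for the p53-regulated microRNA miR-34b that it hosts.

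Reads recovered from the deposited values numbered 24892991 and 25163627 in the WT libraries and 28807120 and 30690538 in the KO libraries. Levels are given in TPM, the abundance of a gene's transcripts after division by gene length, scaled to the same total in each library. A difference is KO minus WT on the log2(TPM + 1) scale, with its standard error (SE), and it understates the change of genes with low TPM. A gene was called where limma's moderated test, fitted over all 12 libraries, gave a Benjamini-Hochberg adjusted p under 0.05. The KO libraries were less alike than the WT libraries: 851 autosomal genes differed by over 1 log2 unit between KO a and KO b, and 175 between WT a and WT b. After median-ratio scaling of the libraries these counts were 488 and 94. Small RNA genes held 51.6% to 56.0% of the TPM in the 4 libraries.

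SPARCLE itself was close to absent in both groups at this time point. It had 0 and 3 reads in WT a and b and 4 and 1 reads in KO a and b, at or near the 3 reads taken as the floor of a library. No read was found in the WT or KO control libraries, whereas OE cells with doxorubicin had 430 and 487 reads. The loss of the transcript could therefore not be checked from the WT and KO libraries, and the KO label rests on the submitters' description. The 19 tested genes within 1 Mb of SPARCLE on chromosome 11 had differences from -0.41 to 0.58, and 0 of them were called.

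Between KO and WT cells with doxorubicin, 38 autosomal genes were called, 0.259% of those tested. Of these, 15 were higher in KO cells (0.102%) and 23 were lower (0.157%), and the median difference over all autosomal genes was 0.01. An unadjusted p under 0.05 was found in 498 autosomal genes, below the share of 0.05 expected where no gene differs. A lack of calls therefore does not show a lack of difference. These were bulk libraries, in which fewer cells expressing a gene and less RNA per cell cannot be told apart. In each of the 38 genes both KO libraries lay outside the range of the WT libraries, a separation that 23.9% of all autosomal genes tested also showed. The count depended on single libraries: it was 18 without KO b, 7 without WT a, 11 without WT b and 28 without KO a. LY6D, PDE4B and WNT16 were called without each of the 4 libraries in turn, and the other 35 lost the call in at least 1 such fit, with no change of sign. A further group of alternatives kept all libraries, and in at least 1 of these 12 of the 38 were not called: APOL6, CYP24A1, IFI44, KRT7, KRTAP3-1, MKX, NAV3, NECTIN3, SYTL2, TIMP3, TSPAN1 and AL359273.1. When small RNA genes were left out before scaling, 66 genes were called, 33 in each direction.

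**Figure D1:**
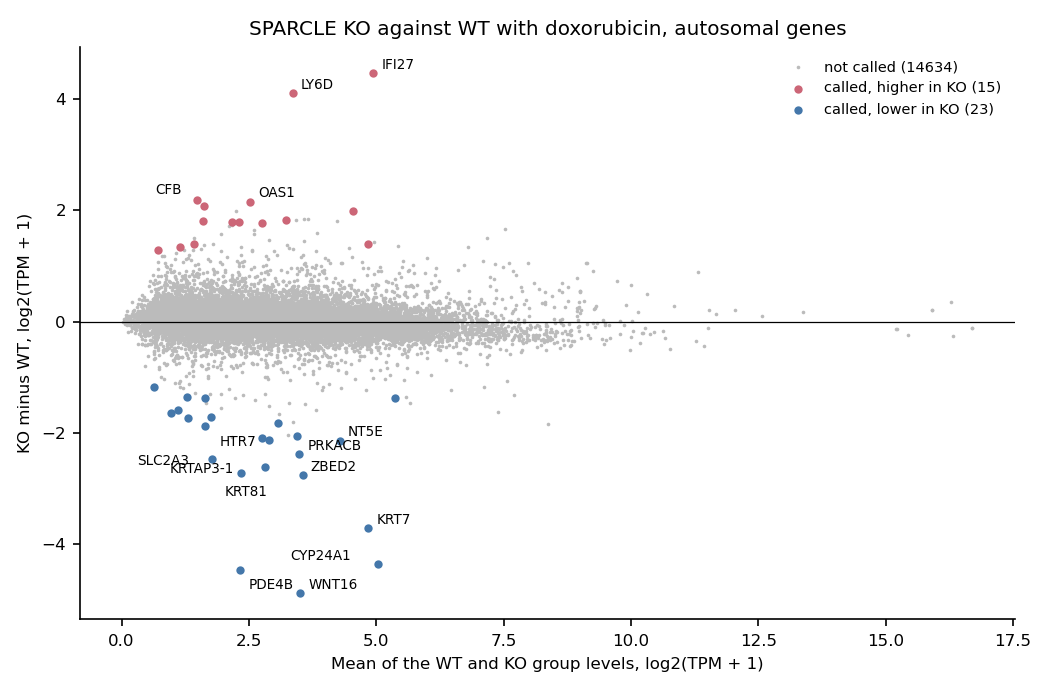
Each point is an autosomal gene; the horizontal axis is the mean of the 2 group levels in log2(TPM + 1) and the vertical axis the KO minus WT difference with doxorubicin in log2(TPM + 1). The 15 called genes higher in KO cells are red and the 23 lower are blue, and some grey genes, which were not called, lie as far from 0 as some called genes; among the called genes WNT16, PDE4B and CYP24A1 are lowest, IFI27 and LY6D highest.

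Genes of cyclic AMP signalling were among those that fell furthest. Receptors coupled to stimulatory G proteins raise cyclic AMP, which activates protein kinase A, and phosphodiesterases of the PDE4 family degrade it. PDE4B, 1 of these phosphodiesterases (hg38, chr1:65792514-66374579), stood at 23.0 and 22.1 TPM in WT a and b and at 0.0968 and 0.0379 TPM in KO a and b. These KO levels came from 15 and 7 reads, against 3170 and 3399 reads in WT cells. The difference was -4.46 ± 0.21 (SE, n = 2 libraries per group; limma, adjusted p = 2.14e-07), and the ratio of read rates was 363 with a 95% interval of 240 to 580 for counting error alone. PRKACB, which encodes the beta catalytic subunit of that kinase, had 30.9 and 18.9 TPM in WT cells and 4.10 and 3.60 TPM in KO cells. Its difference was -2.38 ± 0.34 (adjusted p by limma = 0.00871). HTR7, a serotonin receptor coupled to stimulatory G protein, had 17.6 and 11.95 TPM in WT cells and 2.69 and 2.41 TPM in KO cells, a difference of -2.13 ± 0.26 (limma, adjusted p = 0.00332). Of the 41 cyclic AMP genes tested, these 3 fell, 0 rose and 38 were not called, while 0.157% of all autosomal genes tested were called lower. The list's median difference was 0.00 against 0.01 over all genes. PDE4B was the only member of the list still called without WT a.

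WNT16, a secreted WNT ligand (chr7:121325367-121341104), had the lowest difference of all autosomal genes. Its level was 83.6 and 40.7 TPM in WT cells and 0.758 and 1.32 TPM in KO cells. The groups did not overlap, and the difference was -4.88 ± 0.35 (limma, adjusted p = 1.80e-05). It was the 1 called gene of the 36 WNT ligands and pathway genes tested, against 0.259% of all autosomal genes. The list's median difference was 0.11. ZNRF3, a ubiquitin ligase that removes WNT receptors from the cell surface, had the next smallest p of the list, at 9.10 and 5.90 TPM in WT cells and 14.5 and 15.5 TPM in KO cells (limma, adjusted p = 0.831).

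Keratin genes were also among the lower genes. KRT7, a keratin of simple epithelia, stood at 49.5 and 154 TPM in WT cells and at 11.3 and 2.69 TPM in KO cells, and its difference was -3.71 ± 0.64 (limma, adjusted p = 0.0268). KRT81, a hair keratin, stood at 13.6 and 10.0 TPM against 1.65 and 0.401 TPM (difference -2.72 ± 0.32, adjusted p by limma = 0.00292). KRT81 has near-identical copies in the same cluster, and the counting could have split reads among them. Reads for KRTAP3-1, a hair keratin-associated protein, gave 11.8 and 18.1 TPM in WT cells and 3.93 and 0.329 TPM in KO cells, with a difference of -2.61 ± 0.49 (limma, adjusted p = 0.0472). In KRT7 and KRTAP3-1 the KO replicates differed severalfold, though both lay below the WT libraries. Of the 35 keratin and junction genes tested 2 fell, 0 rose and 33 were not called, and 0 were called without WT a. Over all autosomal genes tested, 0.157% were called lower. KRT17, a keratin of stressed and basal epithelia, pointed the other way, without a call (limma, adjusted p = 0.234). It had 2.71 and 2.69 TPM in WT cells and 11.1 and 5.66 TPM in KO cells.

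The remaining lower genes had varied roles. CYP24A1, the mitochondrial enzyme that inactivates vitamin D, had 123 and 130 TPM in WT cells and 13.1 and 1.73 TPM in KO cells, a difference of -4.36 ± 0.72 (limma, adjusted p = 0.0222). Its WT libraries lay close together, while its KO libraries differed severalfold. CDK6, a kinase that drives cells out of G1, had 13.1 and 12.7 TPM in WT cells and 2.60 and 1.97 TPM in KO cells (difference -2.09 ± 0.29, adjusted p by limma = 0.00857). SLC2A3, the glucose transporter GLUT3, was lower still in KO cells, at 0.180 and 0.719 TPM against 5.30 and 8.79 TPM (difference -2.46 ± 0.39). NT5E, the ecto-enzyme CD73 that makes adenosine, had 43.7 and 36.0 TPM in WT cells and 9.17 and 7.39 TPM in KO cells (difference -2.14 ± 0.33). NECTIN3, an adhesion molecule of cell junctions, had 29.8 and 13.9 TPM in WT cells and 4.42 and 3.84 TPM in KO cells (difference -2.07 ± 0.36). Both surface proteins separated the groups without overlap, as the naming rule required and the plot of the called genes by library shows. ZBED2, a zinc finger transcription factor, had 28.2 and 29.9 TPM in WT cells and 4.79 and 2.38 TPM in KO cells (difference -2.76 ± 0.34). MKX, a homeobox factor known from tendon, had 11.2 and 19.0 TPM against 3.49 and 3.35 TPM (difference -1.82 ± 0.33), and ENKD1, a centriole and microtubule protein, 4.48 and 5.48 TPM against 0.821 and 0.455 TPM (difference -1.87 ± 0.30). These last 6 genes had adjusted p values by limma of 0.00332 to 0.0344.

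Beyond the 15 lower genes with the largest differences, 8 more were called, and the 6 of these with gene names are given here after their values were seen. IL32, a cytokine, fell from 1.65 and 3.44 TPM to 0.108 and 0.0744 TPM, which rest on 6 and 5 reads. ZNF350, a zinc finger repressor, had 114 and 88 reads in WT cells and 2 and 2 reads in KO cells, a ratio of read rates of 61.4 with a 95% interval of 23.6 to 228 that covers counting error only and not the spread between libraries. Both were thus at a few reads in each KO library. FAM3C, a secreted protein also named ILEI, was the most abundant of the 6, at 69.4 and 61.8 TPM in WT cells and 23.7 and 25.9 TPM in KO cells (difference -1.37 ± 0.19, adjusted p by limma = 0.00871). PODXL2, ARMC4 and NAV3 had differences of -1.74, -1.72 and -1.35. The other 2 were the clone-named genes AL359273.1 and AC012625.1, with differences of -1.58 and -1.37.

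**Figure D2:**
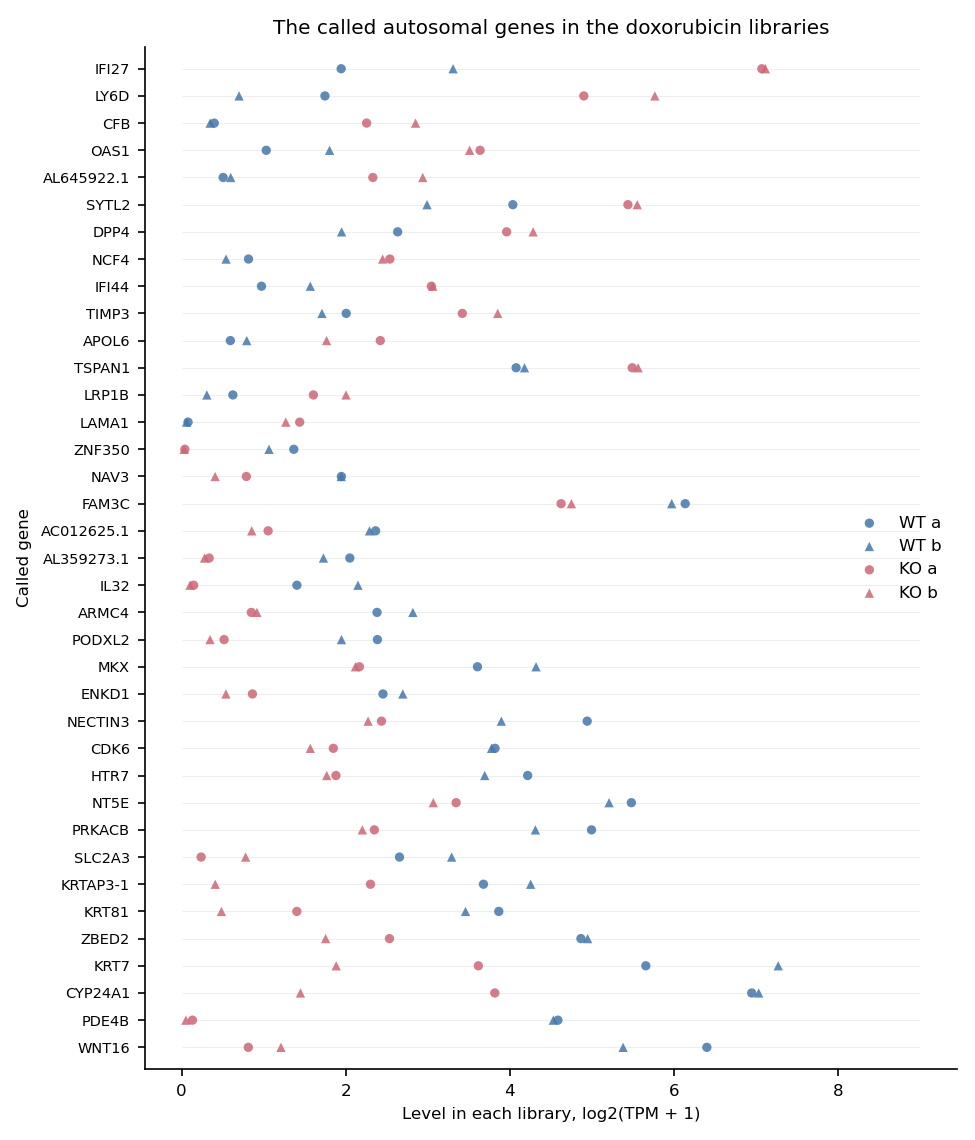
Each row is 1 of 37 called autosomal genes, ordered by its difference, and the horizontal axis is its level in log2(TPM + 1) in WT a and b (blue) and KO a and b (red), with circles for a and triangles for b. The KO points lie on 1 side of the WT points in all 37 rows, and the spread between circles and triangles is wide for KRT7, CYP24A1 and KRTAP3-1.

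Several of the called genes were neighbours in the genome. Within 500 kb of another called gene lay 12 of the 38 (31.6%), against 312 of all 14672 autosomal genes tested (2.13%), a description without a test. WNT16 and FAM3C (chr7:121348851-121396364) lay 7.7 kb apart, KRT7 and KRT81 33.7 kb, MKX and ARMC4 66.1 kb, PRKACB and AL359273.1 106.2 kb, and ZBED2 and NECTIN3 317.3 kb. No other tested gene lay wholly between the members of these pairs, and both members of each pair fell. The other tested genes around these pairs, within 500 kb, were not called. MPP7, a scaffold protein of cell junctions beside ARMC4, had mean levels of 42.8 TPM in WT cells and 20.6 TPM in KO cells (difference -1.02 ± 0.21, adjusted p by limma = 0.08). SAMD13 had mean levels of 2.24 and 0.529 TPM (limma, adjusted p = 0.104). It was centred 130.2 kb from the middle of its pair, against 133.3 kb for AL359273.1, so shared reads are possible. The remaining tested genes around PRKACB and AL359273.1 had differences from -0.61 to 0.10, with only the highest of these above 0. TSPAN12 and ING3, tested genes on the other side of WNT16, had differences of -0.12 and -0.03. The sixth pair was CFB and AL645922.1, a read-through model that overlaps CFB, so their reads cannot be told apart. By chromosome, the median difference ran from -0.02 to 0.05, so no chromosome was shifted as a whole.

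Genes of the interferon response led the genes that were higher in KO cells. Interferons act through receptors that activate a transcription factor complex, which binds the interferon-stimulated response element of its target promoters. IFI27, an interferon-induced mitochondrial protein, stood at 2.85 and 8.91 TPM in WT cells and at 134 and 138 TPM in KO cells. Its difference was 4.47 ± 0.55 (limma, adjusted p = 0.00332). OAS1, which senses double-stranded RNA and activates RNase L, rose from 1.05 and 2.49 TPM to 11.5 and 10.4 TPM (difference 2.16 ± 0.29, adjusted p by limma = 0.00604). IFI44, another interferon-induced protein, rose from 0.965 and 1.97 TPM to 7.25 and 7.35 TPM (difference 1.78 ± 0.30, adjusted p by limma = 0.0234). In these 3 genes the KO libraries lay close together and WT b was higher than WT a.

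Of the 44 interferon response genes tested, 3 rose, 0 fell and 41 were not called, and 42 had differences above 0. Over all autosomal genes tested, 0.102% were called higher. The list's median difference was 0.67 against 0.01 over all genes, and it was 0.48 without KO a and 0.85 without KO b. In control medium the list's median difference was 0.36, against 0.20 over all autosomal genes. Among members without a call, SAMD9, an antiviral protein, had 17.7 and 17.8 TPM in WT cells and 58.2 and 42.2 TPM in KO cells (limma, adjusted p = 0.0864), and it was called in 2 alternatives that kept every library. ISG15, a ubiquitin-like protein and the most abundant member, had 340 and 494 TPM against 795 and 440 TPM, so its groups overlapped. No member was called without WT a. CFB, complement factor B, rose with them from 0.318 and 0.273 TPM to 3.78 and 6.22 TPM (difference 2.18 ± 0.27, adjusted p by limma = 0.00332). APOL6, an apolipoprotein L gene induced by interferon, rose from 0.511 and 0.735 TPM to 4.36 and 2.41 TPM (difference 1.40 ± 0.26, adjusted p by limma = 0.048).

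The upstream sequences of 3 of these genes are shown because they hold the letters of the interferon-stimulated response element, searched as GAAA, any 2 bases and GAAA again, on both strands, in the 250 bases before each RefSeq start site (GRCh38.p14). Capitals mark the matches, which read TTTC, 2 bases and TTTC where the element lies on the other strand. The stretch of IFI27 is chr14:94110486-94110735, that of IFI44 chr1:78649539-78649788 and that of CFB chr6:31945845-31946094, all on the plus strand and printed 5′ to 3′.
IFI27: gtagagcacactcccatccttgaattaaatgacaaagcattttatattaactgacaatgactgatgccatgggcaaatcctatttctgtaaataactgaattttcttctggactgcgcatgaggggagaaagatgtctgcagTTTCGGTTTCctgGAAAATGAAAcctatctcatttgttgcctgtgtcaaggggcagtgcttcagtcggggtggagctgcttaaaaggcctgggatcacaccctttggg
IFI44: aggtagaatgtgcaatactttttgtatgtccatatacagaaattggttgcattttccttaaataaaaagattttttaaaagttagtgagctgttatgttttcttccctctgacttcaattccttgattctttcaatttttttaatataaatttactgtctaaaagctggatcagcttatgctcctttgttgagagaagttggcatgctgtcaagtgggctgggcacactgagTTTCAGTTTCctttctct
CFB: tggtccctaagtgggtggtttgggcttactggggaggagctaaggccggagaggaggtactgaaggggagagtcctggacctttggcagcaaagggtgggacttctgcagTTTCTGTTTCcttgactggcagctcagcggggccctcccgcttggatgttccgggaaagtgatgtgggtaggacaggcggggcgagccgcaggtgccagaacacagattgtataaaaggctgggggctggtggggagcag

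IFI27 held 2 matches, 1 on each strand, and IFI44 and CFB held 1 each. The letters occurred in 3.02% of the 35116 upstream stretches in the table. By gene, 3 of the 7 higher genes with a stretch in the table held them (42.9%), and these are the genes shown. Only 7 of the 15 higher genes had a stretch there, and no match was recorded for OAS1 or APOL6. Among genes with a stretch, 0 of the 16 lower genes and 3.17% of the 9702 autosomal genes tested held the letters. Of the interferon response list, 19 of 34 genes with a stretch held them. A match is a description of the letters and not evidence of binding.

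The other genes that rose had varied roles. LY6D, a surface protein anchored by a lipid and known from stratified epithelia, stood at 2.36 and 0.626 TPM in WT cells and at 28.9 and 53.5 TPM in KO cells. Its difference was 4.11 ± 0.45 (limma, adjusted p = 0.00144), and it was called without each library in turn. DPP4, the surface peptidase CD26, rose from 5.21 and 2.87 TPM to 14.6 and 18.5 TPM (difference 1.83 ± 0.28, adjusted p by limma = 0.0125). SYTL2, an effector of RAB27 in vesicle transport, rose from 15.4 and 6.95 TPM to 42.4 and 46.0 TPM (difference 1.98 ± 0.35). TSPAN1, a tetraspanin of epithelial cells, rose from 15.9 and 17.1 TPM to 44.0 and 46.3 TPM (difference 1.40 ± 0.26). TIMP3, an inhibitor of matrix metalloproteinases, rose from 3.02 and 2.28 TPM to 9.72 and 13.5 TPM (difference 1.78 ± 0.30). It was the 1 called gene of 26 secreted stress factors and proteases, against 0.259% of all autosomal genes tested. NCF4, a subunit of the phagocyte NADPH oxidase, rose from 0.761 and 0.457 TPM to 4.81 and 4.47 TPM (difference 1.82 ± 0.24). LAMA1, a laminin chain, had 14 and 12 reads in WT cells and 499 and 503 reads in KO cells. LRP1B, a large receptor of the LDL receptor family, rose from 0.543 and 0.239 TPM to 2.05 and 3.01 TPM. In these last 6 genes the adjusted p by limma was 0.00583 to 0.0398.

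The same contrast in control medium used 4 other libraries. These libraries also entered the model's estimate of spread and the filter on low values, so the choice of the 38 genes was not independent of them. All 38 had a difference of the same sign in control medium. After the control contrast's median of 0.20 was taken off, 37 (97.4%) did, against 63.9% of all autosomal genes tested. In 35 of the 38 the KO and WT control libraries did not overlap and differed in the direction seen with doxorubicin, as in 26.1% of all autosomal genes tested. In control medium 10 autosomal genes were called (0.0682%), and 7 of them were among the 38, which is 70% of the control calls and 18.4% of the calls with doxorubicin. The 7 were PDE4B, WNT16, PRKACB, HTR7, PODXL2, ZNF350 and SYTL2. PRKACB had 26.5 and 18.9 TPM in WT control cells and 3.41 and 1.52 TPM in KO control cells, a difference of -2.81. The control count was 1 without WT control a and 5 without KO control a.

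**Figure D3:**
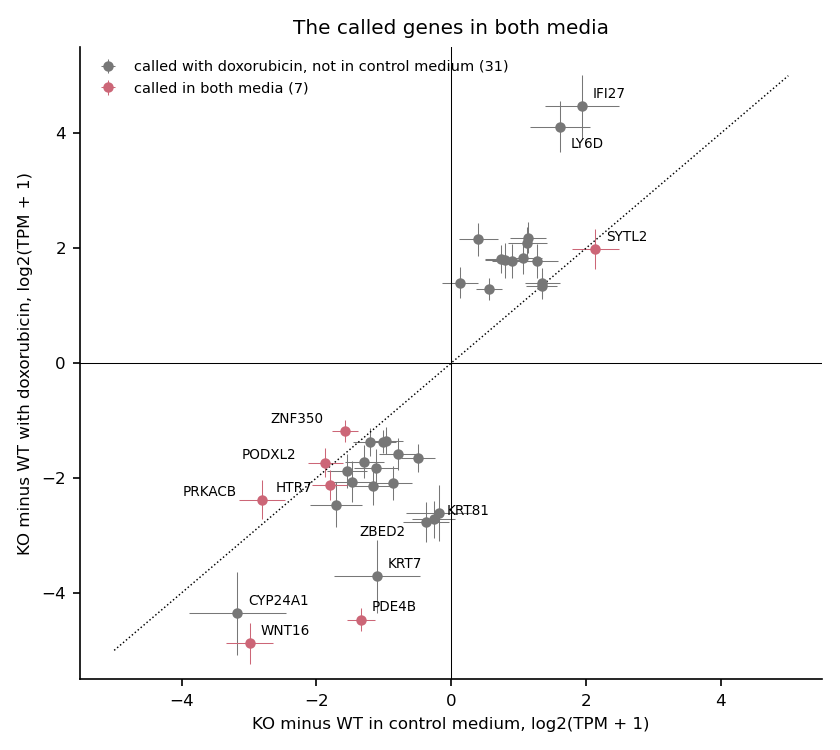
Each point is 1 of the 38 called genes; the axes are its KO minus WT difference in control medium (horizontal) and with doxorubicin (vertical), both in log2(TPM + 1), bars are ± 1 SE, and the dotted line marks equal differences. All points lie in the lower left or upper right part of the plot; the 7 genes called in both media are red.

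The change of the KO minus WT difference between the media was tested as the interaction of genotype and doxorubicin. It called 1 autosomal gene, PDE4B (0.00682%), and 186 had an unadjusted p under 0.05, also below the share of 0.05 expected where no gene differs. WT cells had 1.40 and 1.92 TPM of PDE4B in control medium and 23.0 and 22.1 TPM with doxorubicin, whereas KO cells had 0.0375 and 0.0572 TPM in control medium and 0.0968 and 0.0379 TPM with doxorubicin. The KO minus WT difference was -1.34 in control medium and -4.46 with doxorubicin, an interaction of -3.13 ± 0.29 (limma, adjusted p = 0.0012). It was not called with a pseudocount of 0.1 (interaction -3.54, adjusted p by limma = 1) or with limma voom on recovered reads (-3.24, adjusted p = 1). For the other 37 genes the smallest adjusted p of the interaction was 0.862, which does not show that their differences were equal in the media. The interaction count was 3 without KO doxorubicin a and 3 without KO control b. OAS1, for example, had 0.0970 and 0.0968 TPM in WT control cells and 0.619 and 0.293 TPM in KO control cells, a difference of 0.40 against 2.16 with doxorubicin.

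OE cells with doxorubicin shared the medium with the KO cells, and the labels do not say from which cells they were derived. The comparison of OE with KO cells, added after the data were seen, shares the KO libraries with the main comparison. It called 1 autosomal gene (0.00682%), MIR34BHG itself, and 13 had an unadjusted p under 0.05. That is far below the share of 0.05 expected where no gene differs, so the few calls do not show that OE and KO cells were alike. PDE4B stood at 0.0690 and 0.0436 TPM in the OE libraries, WNT16 at 0.795 and 1.25 TPM, IFI27 at 140 and 180 TPM and LY6D at 30.3 and 79.3 TPM. For these 4 genes the OE levels with doxorubicin were thus beside the KO levels given above. Over the 38 genes, OE minus KO ran from -0.33 to 0.42, with 0 called. In all 38, which were chosen by their KO to WT difference, both OE doxorubicin libraries lay on the KO side of both WT doxorubicin libraries.

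**Figure D4:**
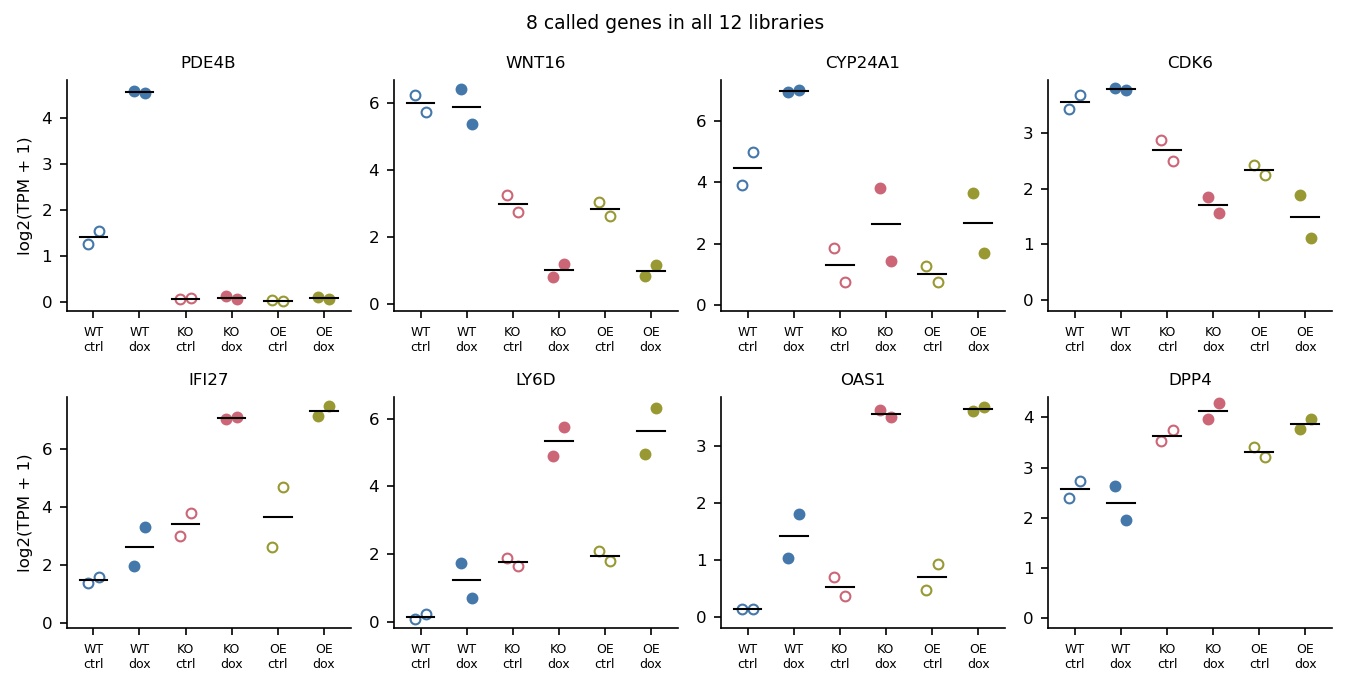
Each panel is a called gene and each point a library, in log2(TPM + 1), for WT (blue), KO (red) and OE (olive) cells in control medium (open) or with doxorubicin (filled); lines are group means. In PDE4B the WT doxorubicin points alone stand high, at 23.0 and 22.1 TPM.

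The p53 programme showed no called member. Of 53 p53 targets tested, 0 were called, 22 had differences above 0 and 31 below, and the median was -0.06. That median was -0.51 without KO a and 0.45 without KO b, so its sign was set by which KO library was used. CDKN1A, the p53-induced inhibitor of cyclin-dependent kinases, had 741 and 761 TPM in WT cells and 1026 and 505 TPM in KO cells. TP53I3, a quinone oxidoreductase induced by p53, had 208 and 297 TPM against 484 and 85.9 TPM. MDM2, the ubiquitin ligase that restrains p53, had 248 and 204 TPM against 259 and 183 TPM. In all 3 genes KO a lay above and KO b below both WT libraries. MIR34AHG, the host of miR-34a, had 6.90 and 3.85 TPM in WT cells and 8.56 and 3.50 TPM in KO cells. The member with the smallest p was PERP, a desmosomal p53 target, at 112 and 113 TPM in WT cells and 189 and 204 TPM in KO cells (difference 0.80 ± 0.20, adjusted p by limma = 0.179).

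Genes of cell death and ADP-ribosylation did not pass the test either. None of 31 pro-apoptotic BCL2 family members, caspases and death receptors (median -0.03), of 13 anti-apoptotic genes (median -0.08), of 26 genes of the PARP family and ADP-ribose turnover (median -0.02) or of 30 genes of double-strand break signalling (median -0.01) was called. PARP1 mRNA stood at 34.6 and 27.8 TPM in WT cells and at 24.5 and 30.5 TPM in KO cells, so the groups overlapped (difference -0.18 ± 0.22, adjusted p by limma = 1). The mRNA level does not show cleavage of the protein. BCL2L11, the death protein BIM, had the smallest p of its list, at 8.81 and 8.27 TPM against 13.7 and 19.5 TPM (limma, adjusted p = 0.373). PMAIP1, the death protein NOXA, had 177 and 173 TPM in WT cells and 180 and 57.8 TPM in KO cells, so KO b alone lay low. PARP9 and PARP14, which are interferon-induced members of the PARP family, had 5.23 and 8.65 TPM against 14.6 and 13.5 TPM, and 11.5 and 13.8 TPM against 31.0 and 16.01 TPM, without a call (adjusted p by limma = 0.783 and 1).

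Proliferation genes were low in all 4 libraries. The median level of the G2/M genes was 1.66 and 1.46 log2(TPM + 1) in WT cells and 1.16 and 1 in KO cells. In the control libraries it was 4.78 and 5.14 in WT cells and 3.62 and 4.55 in KO cells. The median difference of the 39 G2/M genes with doxorubicin was -0.40, 37 had differences below 0 and 0 were called. These genes were also lower in KO cells without the drug, with a median difference of -0.66 in control medium against 0.20 over all autosomal genes. ANLN, an actin-binding protein of the cleavage furrow, had 3.24 and 3.39 TPM in WT cells and 1.34 and 1.49 TPM in KO cells (limma, adjusted p = 0.877). UBE2C, the ubiquitin-conjugating enzyme of the anaphase-promoting complex, had 5.44 and 5.74 TPM against 1.71 and 1.99 TPM (limma, adjusted p = 1). The 39 DNA replication genes had a median of -0.18 with 0 called. RRM2, a subunit of ribonucleotide reductase, had 5.53 and 4.29 TPM against 0.707 and 2.30 TPM (limma, adjusted p = 0.805). All 75 ribosomal protein genes had differences below 0, from -0.48 to -0.04 with a median of -0.27, and 0 were called.

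Among the other lists, the 25 genes of EGF receptor ligands and MAPK feedback had a median of -0.06 with 0 called. AREG, amphiregulin, had 658 and 441 TPM in WT cells and 322 and 69.4 TPM in KO cells (difference -1.84 ± 0.60, adjusted p by limma = 0.69), and it was called without KO a (difference -2.94, adjusted p by limma = 0.0119). EREG, epiregulin, had 345 and 205 TPM against 155 and 47.1 TPM (limma, adjusted p = 0.782). ERRFI1, a feedback inhibitor of the receptor, had 316 and 233 TPM against 109 and 153 TPM (limma, adjusted p = 0.21). In these 3 genes the KO libraries lay below the WT libraries, whereas another ligand, HBEGF, named here after its values were seen, had 9.68 and 9.23 TPM against 13.5 and 8.10 TPM, with overlap. CA12, a carbonic anhydrase in the intestinal list, had 1.15 and 1.65 TPM in WT cells and 7.78 and 5.93 TPM in KO cells (difference 1.71 ± 0.34, adjusted p by limma = 0.065), and LCN2, the iron-binding lipocalin, 2.41 and 7.61 TPM against 15.96 and 20.9 TPM (limma, adjusted p = 0.0843). ITGA2, a collagen-binding integrin, had 32.1 and 20.1 TPM against 60.2 and 73.1 TPM (limma, adjusted p = 0.119). Among the alternatives that kept every library, CA12 was called in 5, ITGA2 in 3 and LCN2 in 2, and LCN2 was also called without WT b. Lists of NF-kB targets, AP-1 and immediate early genes, ATF4 targets and ER chaperones, sterol and fatty acid synthesis and NRF2 targets had medians between -0.06 and 0.14 with 0 called.

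**Figure D5:**
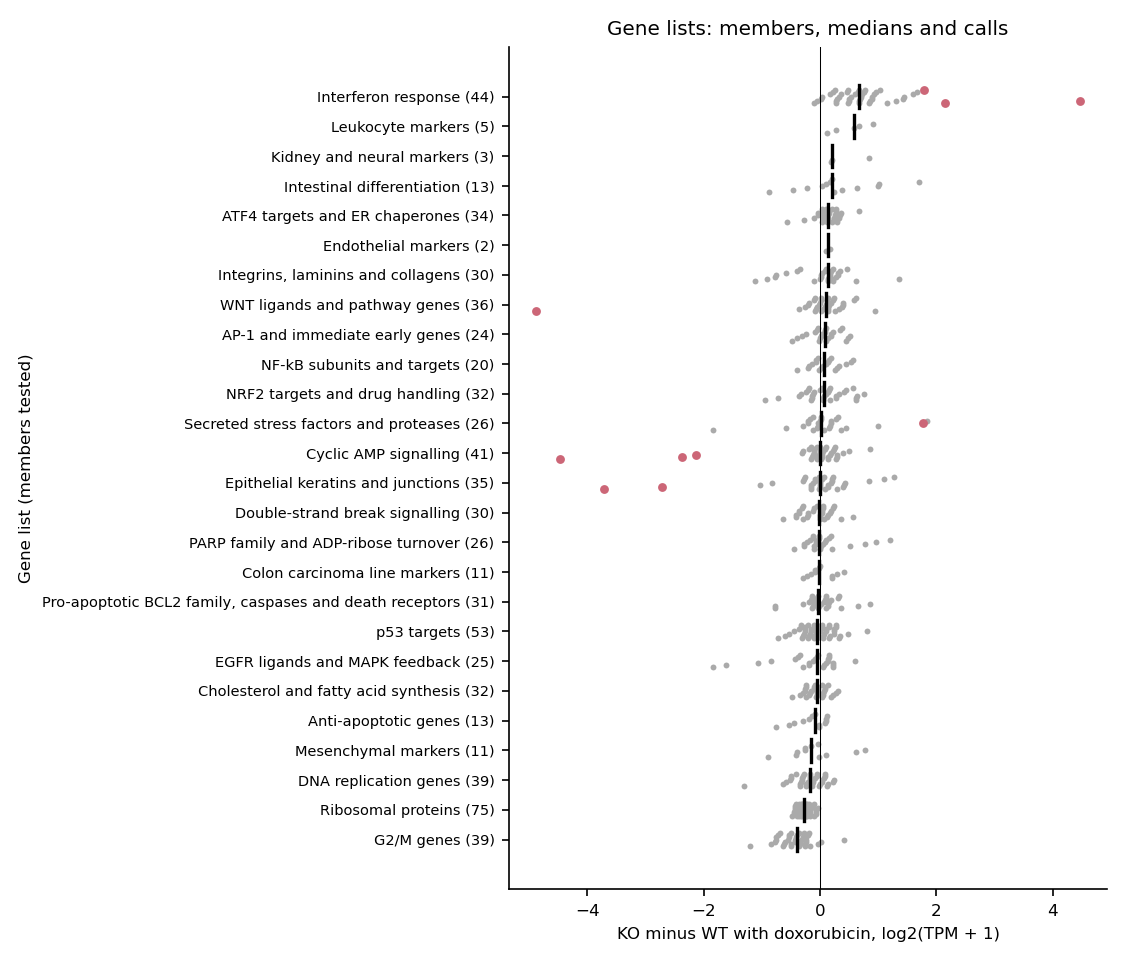
Each row is a gene list with the number of members tested, each grey point a member's KO minus WT difference with doxorubicin in log2(TPM + 1), red points are called members and black bars are list medians. The interferon response list has the highest median, 0.67, and the G2/M list the lowest, -0.40.

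The identity of the cells was checked with marker lists. Of 17 markers of the colon carcinoma line 11 were tested, with summed levels of 3280 and 3450 TPM in WT cells and 2930 and 3120 TPM in KO cells, and 0 were called. Of these, 4 had differences above 0 and 7 below. CDH1, the epithelial cadherin, had the highest difference, at 32.1 and 33.3 TPM in WT cells and 43.0 and 44.2 TPM in KO cells. KRT19 pointed the other way, at 1757 and 1852 TPM in WT cells and 1518 and 1422 TPM in KO cells. The summed levels of the 11 tested markers were thus kept in both groups, with KRT19 a large part of them. Only 12 of the 17 markers were listed in the deposited values. Of 22 leukocyte markers 5 were tested, with summed levels of 15 to 23.8 TPM in WT cells and 25.4 to 32.5 TPM in KO cells, all 5 with differences above 0 and 0 called. HLA-DRA, an antigen-presenting molecule, made up part of this, at 4.48 and 4.01 TPM against 6.70 and 11.5 TPM, while PTPRC and CD3D, which mark leukocytes, did not pass the filter. The part of these markers in the interferon values was not tested. Of 23 mesenchymal, 12 endothelial and 14 kidney and neural markers, 11, 2 and 3 were tested, with 0 called.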

How the data were processed

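Total RNA of HCT116 cells was sequenced with a stranded kit in 12 libraries, 2 in each of 6 groups read from the sample titles. The values deposited by the authors are log2 TPM, per the file headers; 2 to the power of these values sums to 1000000 in each library. Per the submitters' processing notes, build hg38 was used, with edgeR 3.12.1 in R 3.3.3, featureCounts, HISAT2 2.0.4 and SAMtools 1.7, in no stated order. The annotation, strand setting and low-value filter are not given in the sources used here. With GENCODE v29 exon lengths, the values of 15182 genes (91.7%) gave whole reads within 0.05 reads in every library, and for 1493 more a length that does so was found by search; small prior counts were part of the values.

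Genes with at least 1 TPM in at least 2 libraries were tested on log2(TPM + 1) with limma 3.58.1 in R 4.3.3 (empirical Bayes with a mean-variance trend), in 1 model of the 6 groups. The p-values were adjusted by the Benjamini-Hochberg method over all 15256 genes, and autosomal rows are reported. The script was tested on simulated data. Named genes are called, autosomal genes with a gene name and libraries that do not overlap. Up to 15 were taken in each direction by the size of the difference. The 4 members of each of 26 lists with the smallest p, SPARCLE and 7 genes of its pathway were added. TP53I3, ISG15, HBEGF, MPP7, SAMD13, TSPAN12, ING3, PTPRC, CD3D and the 6 lower genes named beyond the 15 were chosen after their values were seen. A few genes are counted but not reported here by name. Members and lists were chosen with earlier results of these data known. Symbols and coordinates came from GENCODE v29, and promoter sequences from RefSeq (GRCh38.p14). Alternatives were another pseudocount, no filter, a mean of at least 5 TPM, median-ratio scaling, small RNA genes left out, only the groups compared, a replicate block, limma voom on recovered reads, a minimum of 1 log2 unit and leaving out each library. Replicate letters a and b are given by the titles, which do not say that a letter marks a shared batch or day.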

Additional observations from a re-analysis of the deposited data

Results flagged for a closer look

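PDE4B was singled out because its KO minus WT difference was tested to differ between the media: -1.34 in control medium and -4.46 with doxorubicin, an interaction of -3.13 ± 0.29 on the log2(TPM + 1) scale (limma, adjusted p = 0.0012), with both KO libraries below both WT libraries in each medium. Over its alternatives the adjusted p ran from 0.000309 to 1; the value of 1 was reached with a pseudocount of 0.1 and with limma voom on recovered reads. The groups of 2 libraries are too small for a search for outlying samples.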

How the results depend on the processing

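The 38 genes called between KO and WT cells with doxorubicin had the same sign under each alternative in which they were tested. The number of autosomal genes called was 12 with a mean of at least 5 TPM, 61 with median-ratio scaling, 66 without small RNA genes, 58 with only the groups compared, 67 with a replicate block and 86 with limma voom on recovered reads, and 7 to 28 when 1 library was left out, a fit in which the lone library is assumed to vary like the others. Of the 38, 30 were called again with a pseudocount of 0.1, 12 of the 16 tested with a mean of at least 5 TPM, 35 with median-ratio scaling, 36 without small RNA genes, 36 with voom, and 38 with no filter, with only the groups compared and with the replicate block. In control medium the count of 10 became 19 with a pseudocount of 0.1, 17 with no filter, 5 with a mean of at least 5 TPM, 30 with median-ratio scaling, 20 without small RNA genes, 1 with only the groups compared, 30 with a replicate block and 1 to 10 without 1 library. WT and KO samples share only a letter: deviations correlated at 0.08 between WT and KO cells with doxorubicin, at 0.81 between KO and OE cells with doxorubicin and at -0.40 between WT and KO cells in control medium, where a crossed replicate block, added after the data were seen, called 42. The interaction count of 1 became 0 with a pseudocount of 0.1 and with voom. It was also 0 with a mean of at least 5 TPM, a filter that PDE4B did not pass, so PDE4B was not tested there. With a replicate block the interaction count was 1. The count of 1 for OE against KO cells was 1 under each alternative.

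Of 1113 values recomputed for 95 genes that the naming rule gave and that were not called, 15 changed sign and 15 became called; the cause was not tested. Without 1 library the lowest and highest differences were -1.52 and 0.96 for TP53I3, -0.57 and 0.45 for CDKN1A, -0.29 and 0.20 for MDM2, -0.46 and 0.63 for MIR34AHG, -0.033 and 0.11 for MIR34BHG, -1.58 and 0.044 for PMAIP1, -0.0077 and 0.91 for CXCL8, -1.22 and 0.10 for ATF5, -1.15 and 0.18 for SCD, -0.032 and 0.38 for ESAM, -0.24 and 0.44 for EGFL7, and -0.016 and 0.43 for PAX8. Of 338 recomputed counts of called list members, 25 moved by over 1.5 times; interferon response calls went from 3 to 7 with only the groups compared and to 0 without WT a. Depth limits SPARCLE itself, which had 0 to 4 reads in the WT and KO libraries with doxorubicin.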

Other observations

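The replicates deviated in a like way in the KO and OE cells with doxorubicin. Across 14672 autosomal genes the difference of replicate a from replicate b had a Pearson's r of 0.81 between these groups, against 0.08 between WT and KO cells with doxorubicin. Genes are not independent replicates, and the points share the library scaling, so these values are given as a description.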
